A study of Mus musculus with 4 samples.

Results

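Complement components and regulators were followed in fibroblasts of mice labelled WT and Zip13KO, ZIP13 being a zinc transporter, as a set of 9 genes of which 8 were measured: Masp1, C1ra, C4b, Cfb, Serping1, Cd55, Cd59a and C3ar1. The set was chosen by gene symbol, as the rows of the array table that carry exactly 1 gene symbol from the set, and the 8 genes had 8 rows among the 22180 genes tested. C3, the ninth, was not analysed here. The study profiled RNA from fibroblasts of WT mice and of mice labelled Zip13KO, given as Zip13-/- in the series' own description, where Zip13 is the gene Slc39a13, on Affymetrix Mouse Gene 2.0 ST arrays with 2 biological replicates per group. Its stated interest is how local zinc balance affects the Golgi and the region around the nucleus. The labels give no strain, age, sex, tissue of origin, passage or treatment, and they do not say whether the replicates came from separate animals or cultures, so p-values measure the spread between these arrays, which may be technical in part.

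Complement is a set of proteases, binding proteins and receptors that marks surfaces for removal and can pierce membranes. The classical pathway starts with C1, in which C1r and C1s are the proteases, and the lectin pathway starts with collectins or ficolins bound to MASP proteases. Both cleave C4 and C2, the alternative pathway uses factor B, and all 3 routes meet at C3. Cleavage releases small peptides such as C3a, which act on cells through receptors, and the later components assemble the membrane attack complex. Host cells limit the cascade with a secreted inhibitor of C1 and with membrane proteins such as CD55 and CD59. The liver makes most of the plasma proteins, and fibroblasts are among the cells that make several components locally.

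All values below are on the log2 scale of the deposited intensity, and differences are Zip13KO minus WT. Array medians ran from 94.5 to 96.1 in linear intensity. The correlation between arrays over all rows was 0.994 within each group and 0.983 to 0.985 across groups (Pearson's r, a description over rows that are not independent). A gene counted as called where limma's moderated test gave a Benjamini-Hochberg adjusted p under 0.05 over all genes. With 2 arrays against 2 the smallest two-sided p of an exact permutation test of a single gene is 0.333, and the calls therefore depend on the moderated model. Slc39a13 itself read 8.94 and 8.85 in WT and 8.89 and 8.98 in Zip13KO, and the difference of 0.04 did not pass (interval of 95% confidence -0.12 to 0.20, limma adjusted p = 0.820). Where its probes lie is not given in the sources used here, and the genotype labels were therefore taken as given. Of the 10 fibroblast markers, 8 exceeded the array median on 2 or more arrays, among them Col1a1, Col1a2, Thy1 and Vim, whereas Lum and Fap lay below it on all 4.

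Of the 8 complement genes 3 fell and none rose. Masp1 fell 3.50-fold, C3ar1 fell 1.33-fold and Cd59a fell 1.25-fold on the arrays labelled Zip13KO; no other gene of the set was past the threshold. Among all 22180 genes 17.1% were called in either direction and 10.1% were called lower. Of the 8, 4 exceeded the array median on 2 or more arrays, Masp1 and C3ar1 among them. In a separate limma fit of the 13819 genes that did so, with its own adjustment, 2351 were called lower and 1627 higher. None of the 8 was called higher, where 7.0% of all genes were. By limma 0 of the 8 had an unadjusted p under 0.05 upward. Another gene, Cd55, had an unadjusted p under 0.05 downward without passing the adjusted threshold. The median difference of the 8 genes was -0.13, against -0.0034 over all genes. The arrays of the groups did not overlap for 5 of the 8, with Zip13KO below WT for 4 and above for 1, but 51.5% of all genes showed such a separation, 27.3% below and 24.1% above. The 3 calls have little in common in size: Masp1 lost most of its signal, while C3ar1 and Cd59a moved by 0.42 and 0.32 log2 units.

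**Figure D1:**
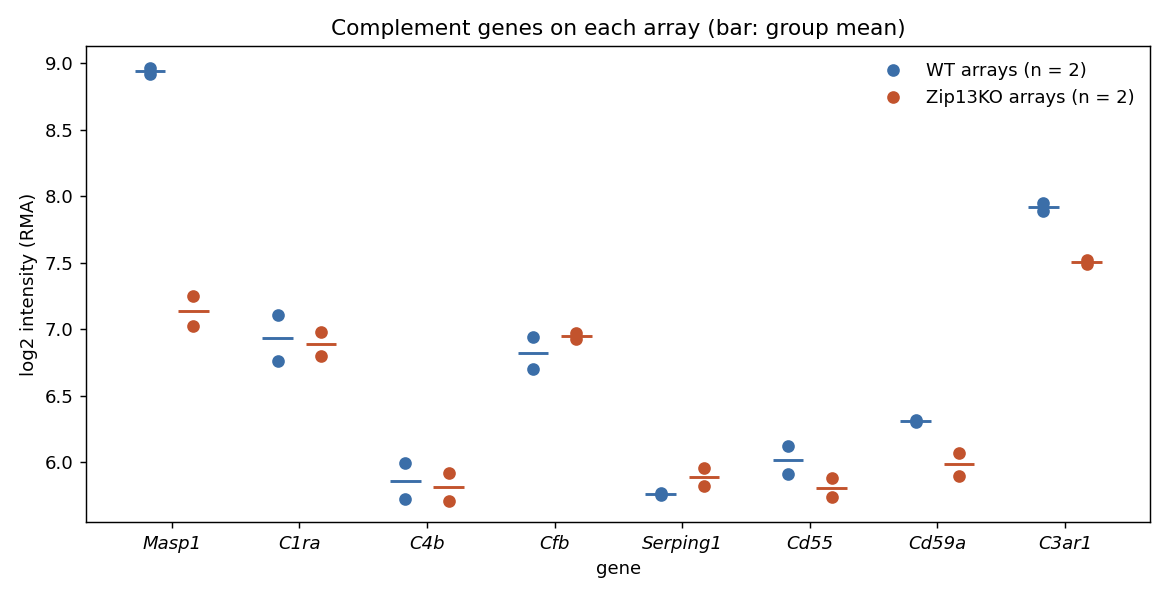
Log2 intensity of the 8 complement genes on each array, with WT in blue and Zip13KO in orange (n = 2 each) and a bar at each group mean. The Masp1 points of the groups lie 1.67 log2 units apart at their closest, those of C3ar1 and Cd59a are separated by less, and those of C1ra, C4b and Cfb overlap.

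C3ar1 and Cd59a are the called genes with an entry in the RefSeq promoter table, and their upstream sequences are shown because both genes fell. Each run is the 250 bases before the annotated start, 5′ to 3′ on the gene's own strand, from build GRCm38.p6. That of C3ar1 is chr6:122856158-122856407 on the minus strand, and that of Cd59a is chr2:104095551-104095800 on the plus strand. Capitals mark matches to the motifs searched.
C3ar1: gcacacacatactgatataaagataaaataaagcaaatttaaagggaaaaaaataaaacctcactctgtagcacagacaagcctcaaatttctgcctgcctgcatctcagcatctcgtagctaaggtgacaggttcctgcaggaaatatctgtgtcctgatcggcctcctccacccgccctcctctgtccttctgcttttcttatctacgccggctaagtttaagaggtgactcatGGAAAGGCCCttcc
Cd59a: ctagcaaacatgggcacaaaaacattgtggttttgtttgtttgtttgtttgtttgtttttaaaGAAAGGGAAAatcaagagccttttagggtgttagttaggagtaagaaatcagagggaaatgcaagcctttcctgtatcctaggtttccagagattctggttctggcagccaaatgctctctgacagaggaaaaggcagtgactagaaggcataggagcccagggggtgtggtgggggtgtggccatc
Letter patterns were searched on both strands, with N for any base. They were TTC-NNN-GAA (the GAS element of STAT proteins), GAAA-NN-GAAA (the core of the interferon-stimulated response element), GGG-NN-TTTCC (a form of the NF-kB site), TTGC-NN-AAT (a form of the C/EBP site) and TGAC-GTCA (the cAMP response element), written with hyphens for legibility. The C3ar1 window held 1 match, to the NF-kB form on the reverse strand, 14 to 5 bases before the start. Of 32851 promoter windows of this length, 1.41% held that pattern. The Cd59a window held 1 match, GAAAGGGAAA, to the interferon response core, 187 to 178 bases before the start, and 2.98% of all windows held that pattern. The remaining patterns had no match in either window and occurred in 7.02% (GAS), 2.11% (C/EBP) and 1.55% (cAMP response element) of all windows. The windows share no matched pattern, and a match describes letters only.

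Masp1 showed the largest change of the 8. Its gene encodes MASP-1, a protease at the start of the lectin pathway and, by alternative splicing, also MASP-3, which activates pro-factor D. The log2 intensity was 8.97 and 8.92 on the WT arrays and 7.03 and 7.25 on the Zip13KO arrays, or 501 and 486 against 130 and 152 as linear intensity. Both WT arrays lay far above both Zip13KO arrays, with a gap of 1.67 between the closest ones, against gaps of 0.04 within WT and 0.22 within Zip13KO. The difference was -1.81 (SE 0.09, 95% interval -1.99 to -1.63, limma adjusted p = 3.29e-11). Of the 22180 genes, 42 had a lower difference, which is 0.189%. The single row for the gene does not tell its splice forms apart. In the alternatives tried the difference lay between -1.92 and -1.70, and every one kept it past the threshold, the highest adjusted p being 4.45e-04.

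**Figure D2:**
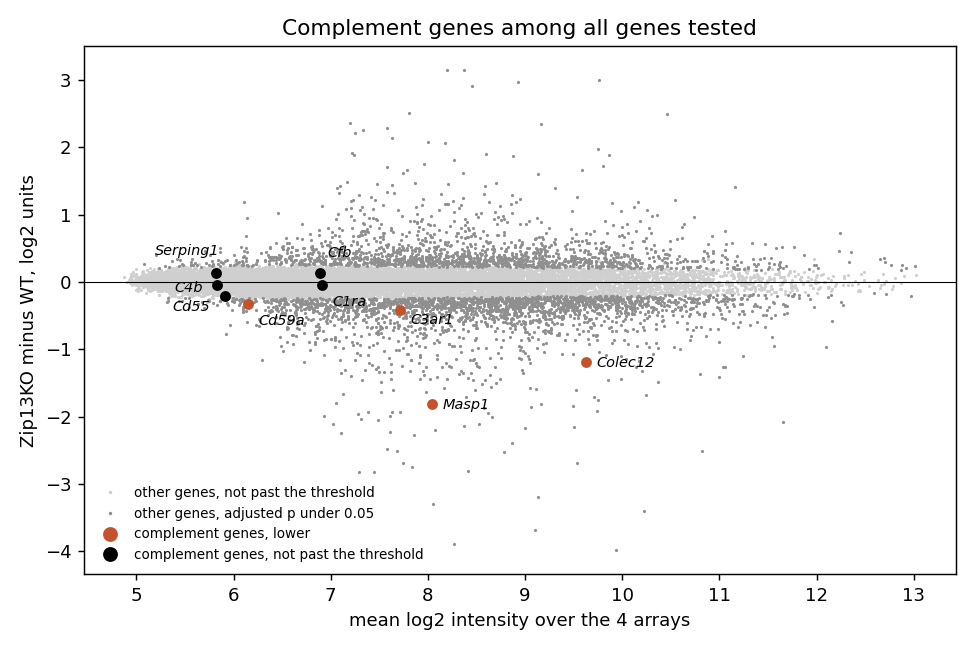
Difference between Zip13KO and WT (log2 units) against the mean log2 intensity over the 4 arrays for all 22180 genes, with the 8 complement genes and the collectin gene Colec12 as large points. Masp1 at -1.81 and Colec12 at -1.19 stand well below the dense part of the cloud. C3ar1 and Cd59a lie toward its lower edge, with 4.06% and 6.32% of all genes at a lower difference, and the other 5 lie within it.

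The components of the classical and alternative pathways gave values that did not separate the groups. C1ra, a protease of the C1 complex, read 7.10 and 6.76 in WT and 6.98 and 6.80 in Zip13KO. Its WT arrays enclosed both Zip13KO arrays, and the difference was -0.04 (95% interval -0.26 to 0.18, limma adjusted p = 0.882). C4b, which encodes a form of component C4, read 5.72 and 5.99 in WT and 5.92 and 5.71 in Zip13KO, with a difference of -0.04 (interval -0.24 to 0.16, adjusted p = 0.858). The higher and lower arrays of the groups were nearly level, and all 4 lay below the array median. Cfb, the protease subunit of the alternative pathway convertase, read 6.70 and 6.94 in WT and 6.97 and 6.93 in Zip13KO. The groups overlapped, with the second WT array level with the Zip13KO arrays, and the difference was 0.13 (interval -0.06 to 0.32, adjusted p = 0.435). It was 0.0075 without WT replicate 1 and 0.25 without WT replicate 2, neither past the threshold. For these 3 genes the intervals of the fit on all 4 arrays reach no further than -0.26 and 0.32 log2 units. C1ra and C4b have close relatives, C1rb and C4a, whose signal an array may share, so the separate values are uncertain. The relatives were at 0.08 (C1rb) and 0.12 (C4a), neither past the threshold.

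Of the regulators Serping1, Cd55 and Cd59a, the last was called. Serping1, the C1 inhibitor, which also restrains plasma kallikrein, read 5.75 and 5.77 in WT and 5.82 and 5.96 in Zip13KO. Both Zip13KO arrays lay above both WT arrays, by a gap of 0.05 that is smaller than the gap of 0.13 within Zip13KO, and the difference of 0.13 did not pass (interval -0.04 to 0.29, limma adjusted p = 0.350). It was 0.061 without Zip13KO replicate 2 and 0.20 without Zip13KO replicate 1, neither past the threshold. Cd55, decay accelerating factor, which takes apart the C3 convertases on a cell's own surface, read 5.91 and 6.12 in WT and 5.88 and 5.73 in Zip13KO. Both Zip13KO arrays lay below both WT arrays by 0.03, and the difference of -0.21 did not pass (interval -0.40 to -0.03, adjusted p = 0.122). It passed without WT replicate 1 (-0.32, adjusted p = 0.0365) and without Zip13KO replicate 1 (-0.28, adjusted p = 0.0343), and was -0.11 at its smallest, so single arrays decide its call.

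Cd59a, which blocks assembly of the membrane attack complex, read 6.32 and 6.30 in WT and 5.90 and 6.07 in Zip13KO. The WT arrays were almost equal and both stood above the Zip13KO arrays, with a gap of 0.23 between the closest ones. The difference was -0.32 (SE 0.08, interval -0.50 to -0.15, limma adjusted p = 0.00940). The call was lost without Zip13KO replicate 1 (-0.24, adjusted p = 0.107) and when all rows of the table entered the fit (adjusted p = 0.109). The gene lay below the array median on all 4 arrays. Its neighbour Cd59b, a closely related gene, was at 0.09 (adjusted p = 0.590), and an array may share signal between the pair. Cd59a lies on the chromosome of Slc39a13, with 68 protein-coding genes between them in the RefSeq order. Of the 66 of these that were measured, 11 fell (16.7%, against 10.1% of all genes) and 2 rose (3.03%, against 7.0%), with a median difference of -0.04. Serping1, at 0.13 and not past the threshold, lies on the same chromosome, with 252 protein-coding genes between it and Slc39a13. Whether these places bear on the Cd59a or Serping1 values was not tested.

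C3ar1, the receptor of the C3a peptide, read 7.89 and 7.95 in WT and 7.49 and 7.52 in Zip13KO. Both WT arrays lay above both Zip13KO arrays by 0.37, several times the gaps of 0.06 and 0.03 within the groups. The difference was -0.42 (SE 0.08, interval -0.58 to -0.25, limma adjusted p = 7.87e-04), and it stayed past the threshold in each alternative, between -0.45 and -0.38. The receptor is best known from myeloid cells, so 10 macrophage markers were read on the same arrays. Of these, Cd14 (-0.32) and Csf1r (-0.26) fell, Cd68 rose (0.40), and 7 did not pass. Among all genes 10.1% were called lower and 7.0% higher. Cd14 read 7.61 and 7.60 in WT and 7.36 and 7.21 in Zip13KO. Cd68 was lost as a call without WT replicate 2 (0.13, limma adjusted p = 0.562) and with robust variance (0.159), Csf1r without WT replicate 1 (0.212) or Zip13KO replicate 2 (0.255), and Cd14 without Zip13KO replicate 2 (0.0917). Ptprc and Adgre1, which define leukocytes and macrophages, lay below the array median on all 4 arrays, as did 5 of the 10 markers in all. The summed linear intensity of the 10 markers ranged from 952 to 1023 in WT and from 957 to 977 in Zip13KO. The part of such cells in the C3ar1 value was not tested, and in bulk RNA fewer cells of a type cannot be told apart from less RNA per cell.

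Across the rest of the pathway 1 gene passed of 45 measured among 49 listed, and it too was lower. Colec12, a membrane collectin that acts as a scavenger receptor, read 10.23 and 10.21 in WT and 8.999 and 9.069 in Zip13KO. The groups were clearly apart, and the difference was -1.19 (SE 0.07, limma adjusted p = 6.14e-10). None of the 45 rose in limma, although 2, Cd93 and Itgb2, had an unadjusted p under 0.05 upward. The share called lower was 2.22%, below the 10.1% of all genes, and the median difference was 0.0058. Of the 45 genes 27 lay below the array median on all 4 arrays, and the table holds no detection call.

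**Figure D3:**
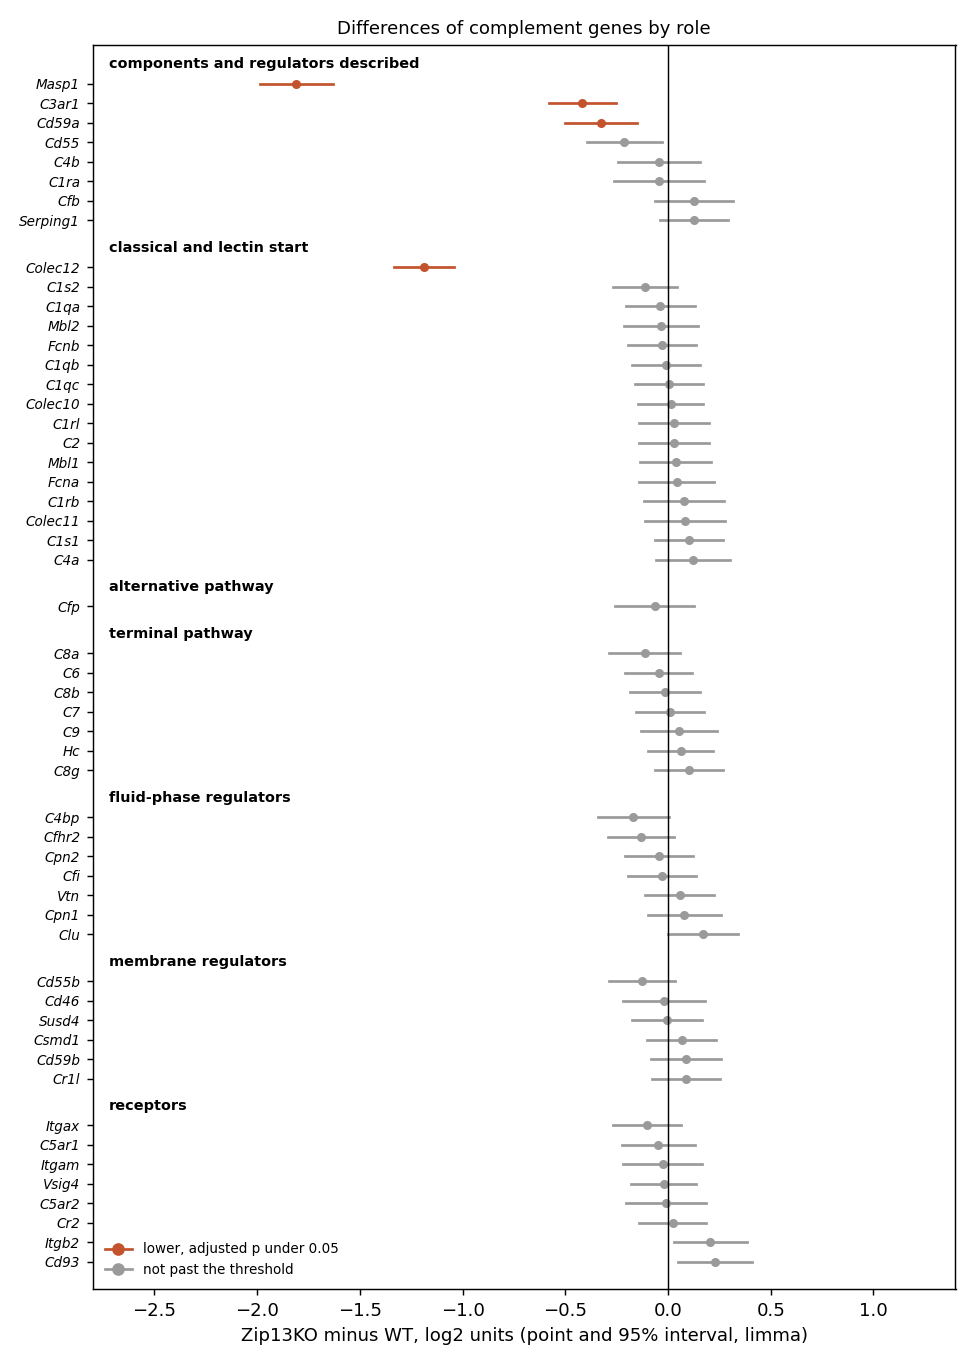
Difference between Zip13KO and WT in log2 units with its 95% interval from limma for 53 complement genes, grouped by role, with orange for genes lower at an adjusted p under 0.05 and grey for those not past the threshold. The 4 orange points are Masp1, C3ar1, Cd59a and Colec12, and the others cluster around 0.

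By role, the list for the start of the classical and lectin pathways held 16 measured genes, of which Colec12 was called. The share called lower was 6.25% and none rose, where 10.1% of all genes were called lower and 7.0% higher. This list is too short to tell its calls from those shares. Of the 16 genes, 8 lay below the array median on every array. As a membrane scavenger receptor, Colec12 is not among the soluble recognition proteins of the lectin pathway. The C1q chains, which recognise bound antibody, were at -0.04 (C1qa), -0.01 (C1qb) and 0.01 (C1qc). C1s1, the partner protease of C1r and the direct neighbour of C1ra in the genome, was at 0.10 (limma adjusted p = 0.495). The lectin pathway's soluble recognition proteins, on which MASP proteases are carried, gave small values as well: Mbl1 was at 0.04, Mbl2 at -0.03, Fcna at 0.04 and Colec11 at 0.08. None of these passed. C2, the direct neighbour of Cfb, was at 0.03, beside 0.13 for Cfb and -0.04 for C4b, which lies 5 protein-coding genes further on. The only measured gene of the alternative pathway list, Cfp (properdin, which stabilises the convertase), was at -0.06 (adjusted p = 0.760).

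Of the 7 terminal components 0 passed in limma, where 10.1% of all genes were called lower and 7.0% higher. The same shares stand beside the lists that follow, all too short to tell a lack of calls from those shares. By limma 0 of the terminal components had an unadjusted p under 0.05, and C8a had the smallest p (-0.11, adjusted p = 0.451). Among 7 soluble regulators none passed, none at an unadjusted p under 0.05, and the closest was clusterin (Clu), a chaperone that binds the terminal complex, at 0.17 (adjusted p = 0.193). Among 6 further membrane regulators none passed, none at an unadjusted p under 0.05. Cd55b, the neighbour and close relative of Cd55, was at -0.13 (adjusted p = 0.337), and Cr1l, the mouse surface regulator Crry, read 8.16 and 8.11 in WT and 8.16 and 8.28 in Zip13KO. Among 8 receptors none passed. Cd93, a C-type lectin-like receptor, was closest, with 6.77 and 6.74 in WT and 7.07 and 6.89 in Zip13KO. Its difference of 0.23 had an adjusted p of 0.0773 in limma, and single arrays moved it from 0.14 without Zip13KO replicate 1 (adjusted p = 0.474) to 0.32 without Zip13KO replicate 2 (0.0226), the one array whose removal brought a call. The C5a receptors were at -0.05 (C5ar1) and -0.01 (C5ar2), neither past the threshold.

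Interferons and the interleukin 6 family are known inducers of complement genes in many cells, so their receptors and transcription factors were read beside the set. Of 12 genes of interferon and STAT signalling, 4 rose and 4 fell, where 7.0% of all genes were called higher and 10.1% lower. Of the 12, 11 exceeded the array median on 2 or more arrays. Such genes were called more often in a fit of their own than all genes in the main fit. In that separate limma fit of 13819 genes, with its own adjustment, 1627 were called higher and 2351 lower. Irf9, the DNA-binding partner in the interferon-activated complex, rose from 7.54 and 7.55 to 8.55 and 8.49, by 0.97 (SE 0.08, limma adjusted p = 3.43e-08). The receptor chain Ifnar2 fell by 0.52 and the kinase Jak1 fell by 0.43, also past the threshold. On the same arrays C4b, Cfb, Serping1 and C1ra did not pass, with differences from -0.04 to 0.13, nor did Cd55 (-0.21). Masp1 (-1.81), C3ar1 (-0.42) and Cd59a (-0.32) fell. Whether the signalling genes bear on the set was not tested.

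Of 13 genes of interleukin 6 and NF-kB signalling, 4 fell and 2 rose, against the same shares of all genes, 10.1% lower and 7.0% higher. Here too most, 11 of the 13, exceeded the array median on 2 or more arrays. Osmr, the receptor chain for oncostatin M, read 9.51 and 9.39 in WT and 7.92 and 7.99 in Zip13KO, a difference of -1.49 (SE 0.08, limma adjusted p = 1.07e-10). The signalling factor Stat3 fell by 0.64 and the shared receptor chain Il6st fell by 0.39. Of the 2 that rose, Nfkb2 did not pass without Zip13KO replicate 2 (adjusted p = 0.0562), and Rela did not pass without any one of WT replicate 1, WT replicate 2 or Zip13KO replicate 2 (adjusted p from 0.111 to 0.229), after each array was centred on its median (0.0574) or without the trend in intensity (0.127). In the interferon list, Jak2 did not pass without WT replicate 1 or Zip13KO replicate 2 (adjusted p = 0.113 and 0.0949), nor Stat2 without WT replicate 2 or Zip13KO replicate 2 (0.223 and 0.129).

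**Figure D4:**
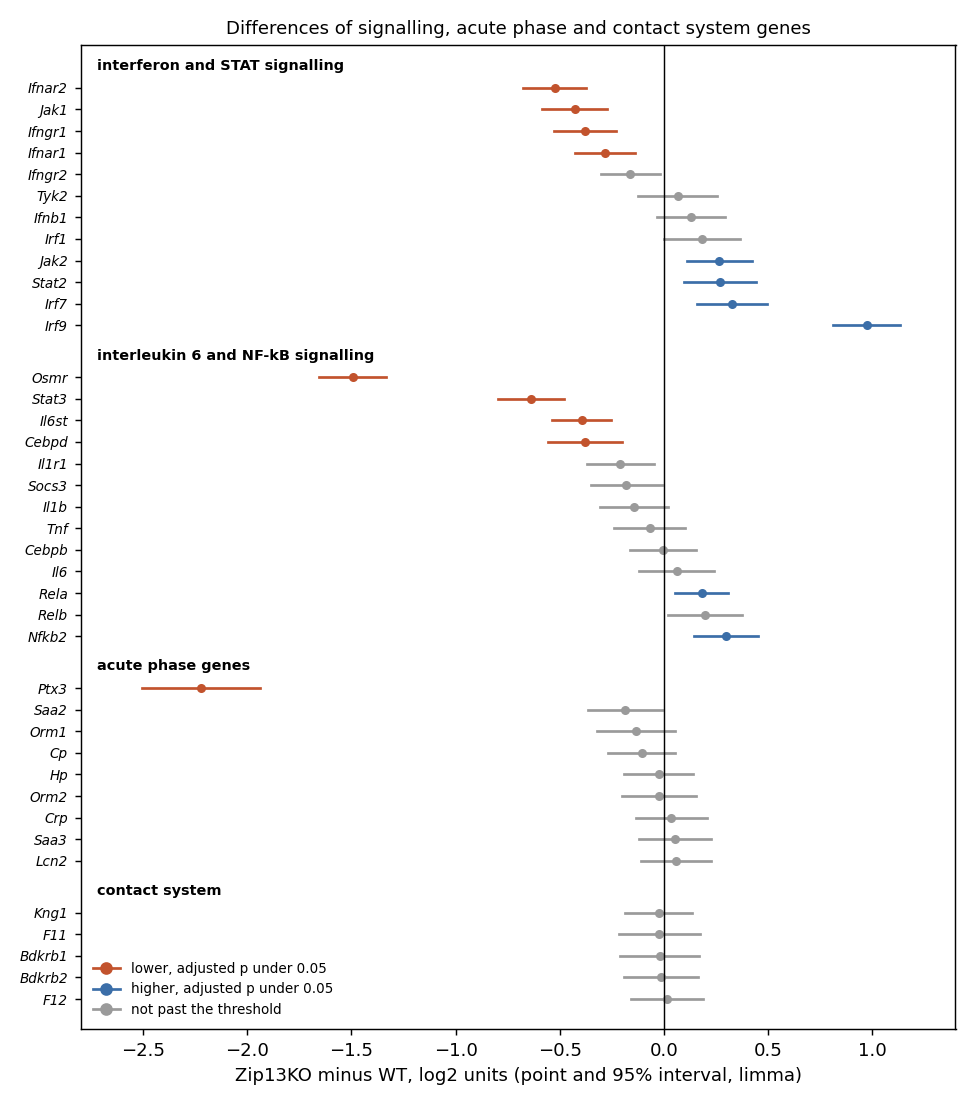
Difference between Zip13KO and WT in log2 units with its 95% interval from limma for genes of interferon and STAT signalling, interleukin 6 and NF-kB signalling, the acute phase and the contact system, with orange for lower, blue for higher and grey for not past the threshold. Ptx3 at -2.22 and Osmr at -1.49 lie farthest to the left and Irf9 at 0.97 farthest to the right.

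Of 9 acute phase genes, which many tissues switch on in inflammation together with complement, 1 fell and none rose in limma, none at an unadjusted p under 0.05 upward. The share called lower was 11.1%, near the 10.1% of all genes, and 7.0% of all genes were called higher. The gene that fell was Ptx3, a long pentraxin that binds C1q. It read 8.70 and 8.75 in WT and 6.18 and 6.82 in Zip13KO, far apart between groups though the Zip13KO arrays differed from each other by more than those of WT. The difference was -2.22 (SE 0.13, limma adjusted p = 9.52e-10). None of the 5 genes of the contact system, the other cascade that Serping1 restrains, passed in limma or had an unadjusted p under 0.05. Kng1, the kininogen gene, had the smallest p (-0.02, adjusted p = 0.908).

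Markers of other cell types were read on the same arrays. Msln, a mesothelial marker, rose by 2.97, and it was the only one of 8 mesothelial markers past the threshold. Their summed linear intensity ranged from 1045 to 1061 in WT and from 2223 to 2260 in Zip13KO. Without Msln the sum of the other 7 ranged from 877 to 881 in WT and from 863 to 888 in Zip13KO. Upk3b, Wt1 and Krt19 were at -0.02, 0.04 and -0.01. None of 6 endothelial, 5 keratinocyte and 5 hepatocyte markers passed in limma, and 1 endothelial (Cdh5, 0.20) and 1 keratinocyte marker (Krt14, -0.26) had an unadjusted p under 0.05. The summed intensity of these lists ranged from 508 to 511 in WT and from 528 to 536 in Zip13KO for endothelial, from 544 to 547 and from 533 to 534 for keratinocyte, and from 387 to 391 and from 386 to 399 for hepatocyte markers. Of the 10 fibroblast markers 4 fell, 1 rose and 5 did not pass, where 10.1% of all genes were called lower and 7.0% higher. Of the 10, 8 exceeded the array median on 2 or more arrays. In the separate limma fit of the 13819 genes that did so, with its own adjustment, 2351 were called lower and 1627 higher. Pdgfrb fell by 0.92, Col1a1 fell by 0.89, Col1a2 fell by 0.46 and Vim fell by 0.17, while Pdgfra rose by 1.04. The fall of Vim did not pass without WT replicate 1 (-0.13, limma adjusted p = 0.383). The summed intensity of the 10 ran from 15491 to 16317 in WT and from 12652 to 13184 in Zip13KO. The part of these shifts in the falls of Masp1 and Colec12 was not tested.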

How the data were processed

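Total RNA from fibroblasts had been hybridised to Affymetrix Mouse Gene 2.0 ST arrays, 2 per genotype, per the labels. The authors deposited linear intensity, from 21.8 to 10826. The submitters' processing notes name Affymetrix Expression Console and RMA, without versions; RMA returns log2 values, so a conversion to linear values before deposit is likely, and log2 was taken first, with no pseudocount. RMA evens out array distributions, which hides any shift common to most genes, and it compresses dim genes.

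Of 41345 rows, 23521 had 1 gene symbol in the platform annotation, 1814 had several and 16010 were unnamed. The brightest row per gene by mean log2 was kept, which left 22180 genes. Groups followed the genotype labels. The test was that of limma 3.58.1 under R 4.3.3 (two-sided; lmFit and eBayes with trend), with Benjamini-Hochberg adjustment over all genes. Residual degrees of freedom were 2 and prior ones 15.1. The pipeline was tested on simulated data. Plots used matplotlib 3.10.9 in Python 3.11.15.

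The genes of the set and all lists were chosen with earlier results of these data known. All genes of the set were named, with each called gene of the wider complement list, or the smallest p per role, and up to 3 called genes by size, or the smallest p, per signalling list. Others named, including markers, Cd59b, C1rb, C4a, C2, Itgb2, Jak2, Stat2, Nfkb2, Rela and genes listed by role, were chosen after their values were seen. Of the 9 genes, 5 had an entry in the RefSeq promoter table. Alternatives are given in the closing section.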

Additional observations from a re-analysis of the deposited data

How the results depend on the processing

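Masp1, C3ar1 and Colec12 kept their direction and call in all 14 alternatives: 2 replicate blocks, a filter on low values, 2 further normalizations, 2 other variance models, the mean of a gene's rows, all rows, a pseudocount of 16, and each of the 4 arrays left out. With the replicate number as a block (replicate block) 3 genes of the set and 3364 of all genes passed, and of the genes named it ended the calls of Jak2 (adjusted p = 0.0510), Rela (0.162) and Vim (0.103) in limma. Deviations of same-numbered arrays correlated at -0.158 over genes, so a crossed block was added after seeing the data. The crossed block called 5208 genes, 4 of the set (with Cd55) and 2 of the wider list (with Cd93). The fit over all rows called 1806 genes and 2 of the set, and did not call Cd59a, Ifnar1, Jak2, Stat2, Irf7, Cebpd, Nfkb2, Rela, Vim, Cd68, Csf1r and Cd14 (adjusted p from 0.0589 to 0.310). The filter left Cd59a without a value and 2 calls in the set. Leaving out single arrays gave 1 to 2 calls in the wider list, the second being Cd93, and 3 to 4 in the set. Uncalled differences changed sign when single arrays were left out: C4b ranged from -0.18 to 0.090 (above 0 without WT replicate 2 or Zip13KO replicate 2), C1ra from -0.21 to 0.13 (above 0 without WT replicate 1 or Zip13KO replicate 2) and Slc39a13 from -0.0055 to 0.090 (below 0 without WT replicate 2 or Zip13KO replicate 2). The causes were not tested. A lone remaining array was taken to vary as the other group's arrays do. The number of arrays limits precision.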
